A study of Mus musculus with 6 samples.

Results

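AMP-activated protein kinase (AMPK) is a complex of a catalytic α, a scaffolding β and a regulatory γ subunit, each encoded by more than 1 gene. The 7 subunit genes were Prkaa1, Prkaa2, Prkab1, Prkab2, Prkag1, Prkag2 and Prkag3. They were found by taking every non-control probe set whose platform annotation names exactly 1 gene, and that gene a subunit. This gave 16 of 45037 non-control probe sets, with 1 to 4 per gene, and 15 of them were among the 26995 bright enough to be tested. All 7 genes had a tested probe set, among 12529 genes tested in all.

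RNA came from quadriceps, a mainly fast-twitch muscle of the thigh. All animals were male C57/BL6 mice aged 8 weeks. Wild-type muscle (3 arrays) was compared with muscle of animals labelled hSkeletal Actin -ERRg transgenic (3 arrays), in which the orphan nuclear receptor ERRγ is driven by the α-skeletal actin promoter of muscle fibres. The titles call each sample a biological replicate. The sources used here do not say how many transgenic lines were used. The comparison asks how transcript levels differ when the receptor is expressed from a transgene in muscle fibres. Values are MAS5 signals, a hybridisation intensity in arbitrary units. The transgene check was large: the brightest Esrrg probe set read 71.6, 61.0 and 24.1 on the wild-type arrays and 14427, 13808 and 12697 on the transgenic arrays. The other Esrrg probe sets did not pass, at log2 differences of 0.40 (limma adjusted p = 0.284) and 0.35 (limma adjusted p = 0.443).

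AMPK is switched on when AMP and ADP rise relative to ATP: the nucleotides bind the γ subunit, and the upstream kinase LKB1 phosphorylates the α subunit. The active kinase favours glucose uptake and fatty acid oxidation and restrains synthesis of fat, sterols and protein. The β subunits carry a glycogen-binding module, and the β2 form predominates in skeletal muscle. The γ3 form is known from fast glycolytic muscle, where it pairs mainly with α2 and β2, and a mutation of γ3 in pigs raises muscle glycogen. Arrays measure transcripts only, so phosphorylation and kinase activity are not part of these data.

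Prkag3 and Prkab2 fell in transgenic muscle and Prkag1 rose, while Prkaa1, Prkaa2, Prkab1 and Prkag2 did not pass the test. Prkag3 was 8.95-fold lower in mean signal, Prkab2 was 1.74-fold lower at its brightest probe set, and Prkag1 was 1.40-fold higher. The Prkag1 call was lost in 7 of 17 alternative settings, which changed the processing or left out arrays. The Prkag3 and Prkab2 calls were kept in all of them. Prkab2 accounts for 3 of the 4 probe sets that fell. Of the 15 tested probe sets, 1 rose, 4 fell and 10 did not pass, that is 33.3% called, against 11.5% of all tested probe sets (6.38% higher and 5.16% lower). By gene, each represented by its brightest probe set, 3 of 7 (42.9%) changed, against 13.4% of all genes tested. The median log2 difference was -0.29 over the 15 probe sets and 0.05 over all tested probe sets. Calls are limma tests on log2(signal + 16) with a Benjamini-Hochberg adjusted p under 0.05 over all tested probe sets.

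**Figure D1:**
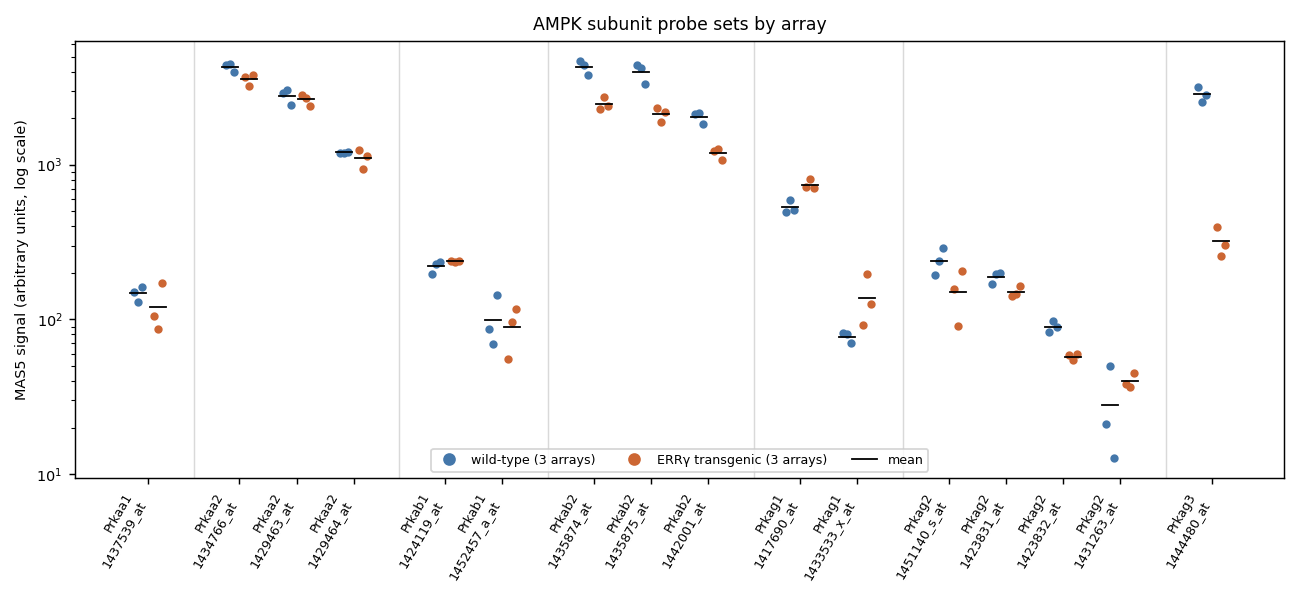
MAS5 signal of each AMPK subunit probe set on each array, on a log axis in arbitrary units, for 3 wild-type and 3 ERRγ transgenic arrays, with black bars for means. The Prkag3 transgenic arrays sit between 257.4 and 397.0, all below the wild-type arrays, and the 3 Prkab2 probe sets also separate; heights of different probe sets cannot be compared with each other.

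Promoter windows of the members that changed are shown because ERRγ is a DNA-binding receptor. One further window, of Prkag2, is shown because it held the receptor's element. All 7 genes matched the RefSeq promoter table (build GRCm38.p6), with 9 windows, and the 250 bases before each transcript start were searched on both strands. The motifs were the ERR response element TNAAGGTCA, its core AAGGTCA, which lies inside it, and the E-box CANNTG bound by muscle regulatory factors. Capitals mark matches to any of them. The windows are Prkag3 at chr1:74748956-74749205 (minus strand), Prkab2 at chr3:97657962-97658211 (plus strand), Prkag1 at chr15:98831509-98831758 (minus strand) and 1 of 3 Prkag2 starts at chr5:24995754-24996003 (minus strand), each written 5′ to 3′ towards the gene.
Prkag3: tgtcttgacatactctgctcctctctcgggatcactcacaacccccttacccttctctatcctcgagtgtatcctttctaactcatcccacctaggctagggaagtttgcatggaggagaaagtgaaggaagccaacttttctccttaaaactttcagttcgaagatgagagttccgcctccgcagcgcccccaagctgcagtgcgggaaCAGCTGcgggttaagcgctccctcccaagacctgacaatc
Prkab2: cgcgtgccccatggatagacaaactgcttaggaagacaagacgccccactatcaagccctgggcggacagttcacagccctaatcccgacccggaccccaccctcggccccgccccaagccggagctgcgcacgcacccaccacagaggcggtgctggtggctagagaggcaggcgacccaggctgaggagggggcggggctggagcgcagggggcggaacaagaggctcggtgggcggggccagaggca
Prkag1: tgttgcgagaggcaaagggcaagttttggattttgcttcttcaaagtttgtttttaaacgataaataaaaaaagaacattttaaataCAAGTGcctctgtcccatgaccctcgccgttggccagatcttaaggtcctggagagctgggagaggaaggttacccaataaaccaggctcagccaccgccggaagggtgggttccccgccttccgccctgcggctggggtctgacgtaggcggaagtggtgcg
Prkag2: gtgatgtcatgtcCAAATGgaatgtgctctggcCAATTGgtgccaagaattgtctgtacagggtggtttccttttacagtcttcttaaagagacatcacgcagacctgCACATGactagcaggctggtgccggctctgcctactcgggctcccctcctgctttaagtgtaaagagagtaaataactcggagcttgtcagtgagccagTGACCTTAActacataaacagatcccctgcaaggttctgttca

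The element TNAAGGTCA was found in 1 of the 9 windows, the Prkag2 window above, where the match begins 43 bases before the transcript start and reads on the opposite strand. Among all 32851 promoter windows of the table, 1.14% hold that element and 4.08% hold its core. The Prkag3, Prkab2 and Prkag1 windows hold neither. The E-box was found 40 bases before the start in the Prkag3 window and 163 bases before it in the Prkag1 window, not in the Prkab2 window, and in 66.2% of all windows. These are letter matches in short windows. Binding was not measured.

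The catalytic subunits come first. Prkaa2 encodes α2, the main catalytic subunit of skeletal muscle fibres. Its brightest probe set (1434766_at) read 4392, 4441 and 3953 on the wild-type arrays and 3708, 3205 and 3806 on the transgenic arrays. The genotypes did not overlap, but the log2 difference of -0.26 (95% interval -0.48 to -0.03) did not pass (limma adjusted p = 0.142). The other Prkaa2 probe sets, which share a source sequence with each other, overlapped between genotypes. They gave log2 differences of -0.07 (95% interval -0.32 to 0.18) and -0.13 (95% interval -0.39 to 0.14). After median scaling, which gives all arrays the same median signal, the brightest probe set passed as lower, at -0.41 (limma adjusted p = 0.0390). That scaling moved the median log2 difference of all tested probe sets from 0.05 to -0.09.

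Prkaa1 encodes α1, the catalytic subunit of most other tissues. Its single probe set read 151.1, 128.9 and 162.9 on the wild-type arrays and 105.3, 87.3 and 170.8 on the transgenic arrays. The highest and the lowest values were both transgenic, so the genotypes overlapped. The log2 difference was -0.30 (95% interval -0.79 to 0.20, limma adjusted p = 0.446), an interval that leaves room for a change in either direction.

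Among the scaffolding subunits, Prkab2 fell and Prkab1 did not pass. Prkab2 encodes β2, which holds the α and γ subunits together. Its brightest probe set (1435874_at) read 4704, 4374 and 3789 on the wild-type arrays and 2280, 2722 and 2392 on the transgenic arrays, means of 4289 ± 463.2 and 2465 ± 230.2 (SD, n = 3). Every transgenic array lay below every wild-type array. The log2 difference was -0.79 (SE 0.11, limma adjusted p = 0.00140). The second probe set, made from the same source sequence, read 4407, 4193 and 3338 against 2326, 1896 and 2195. It fell by 0.89 on the log2 scale (SE 0.13, limma adjusted p = 0.00146). The last, from a different source sequence, read 2140, 2150 and 1844 against 1233, 1254 and 1073, and fell by 0.78 (SE 0.11, limma adjusted p = 0.00141). All 3 probe sets thus separated the genotypes without overlap, by 41.9% to 46.2% of the wild-type mean. On each of them wild-type 3 was the lowest wild-type array. The call held at each probe set with any 1 array left out, with log2 differences from -1.01 to -0.71.

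Prkab1 encodes β1, the widely expressed scaffold. Its brighter probe set read 197.7, 228.4 and 234.9 on the wild-type arrays and 239.3, 234.7 and 237.0 on the transgenic arrays. The transgenic arrays lay close together and overlapped the wild-type range. The log2 difference was 0.10 (95% interval -0.19 to 0.40, limma adjusted p = 0.683), and -0.04 with median scaling. The dimmer probe set gave -0.13 (95% interval -0.77 to 0.51, limma adjusted p = 0.822), with means of 99.7 ± 38.8 and 89.3 ± 30.9 (SD, n = 3).

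**Figure D2:**
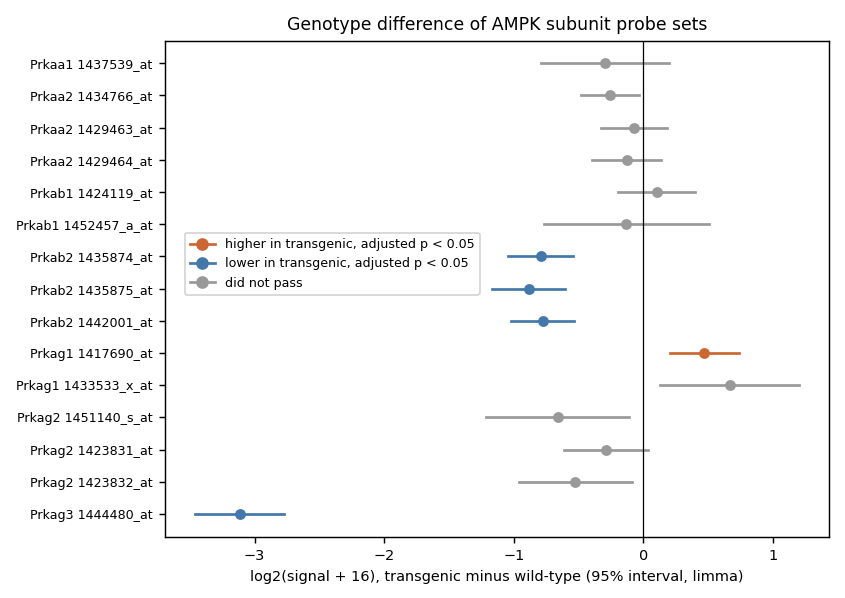
Transgenic minus wild-type difference in log2(signal + 16) for the 15 tested AMPK subunit probe sets, with the 95% interval of the limma fit; blue passed as lower, orange passed as higher and grey did not pass. Prkag3 lies at -3.11, the 3 Prkab2 probe sets lie between -0.89 and -0.78, and the remaining members lie between -0.66 and 0.67.

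Among the regulatory subunits, Prkag3 fell, Prkag1 rose and Prkag2 did not pass. Prkag3 encodes γ3, the nucleotide-binding subunit typical of fast glycolytic fibres. Its single probe set (1444480_at) read 3192, 2543 and 2835 on the wild-type arrays and 397.0, 257.4 and 302.7 on the transgenic arrays. The lowest wild-type array stood far above the highest transgenic array. The means were 2857 ± 325.4 and 319.0 ± 71.2 (SD, n = 3), so that transgenic muscle kept 11.2% of the wild-type signal. The log2 difference was -3.11 (SE 0.16, 95% interval -3.46 to -2.77, limma adjusted p = 2.82e-06), rank 4 among the falls of 12529 genes. With 1 array left out it lay between -3.28 and -2.98, and it passed each time. No second probe set was there to check it against, and the transcript region the probe set covers was not examined.

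Prkag1 encodes γ1, the most widely expressed γ subunit. Its brighter probe set (1417690_at) read 497.8, 589.6 and 508.4 on the wild-type arrays and 716.8, 810.8 and 701.6 on the transgenic arrays. The genotypes did not overlap, with means of 531.9 ± 50.2 and 743.1 ± 59.1 (SD, n = 3). The log2 difference was 0.47 (SE 0.12, limma adjusted p = 0.0286). The rise lost its call without wild-type 1 (adjusted p = 0.117), wild-type 3 (0.0519), transgenic 1 (0.0725) or transgenic 2 (0.0908). It was also lost with median scaling, at 0.32 (adjusted p = 0.148), and without the intensity trend of the fit (adjusted p = 0.0926). The dimmer probe set, whose suffix marks probes that can match other transcripts, read 82.3, 80.0 and 70.3 against 91.4, 196.6 and 126.7. It did not overlap either, at 0.67 (SE 0.24), and did not pass (limma adjusted p = 0.108), but passed without transgenic 1 (adjusted p = 0.0457).

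Prkag2 encodes γ2, a subunit best known from the heart, where mutations cause glycogen storage and pre-excitation. Its brightest probe set read 194.9, 237.1 and 287.4 on the wild-type arrays and 157.3, 91.0 and 204.3 on the transgenic arrays, and overlapped between genotypes (log2 difference -0.66, limma adjusted p = 0.119). A second read 168.4, 195.7 and 199.2 against 142.5, 146.1 and 164.2, at -0.29 (limma adjusted p = 0.253). Another read 82.5, 97.5 and 89.7 against 58.7, 54.4 and 59.6, at -0.52 (limma adjusted p = 0.121). At these last probe sets the genotypes did not overlap, and all 3 probe sets, which share a source sequence, were negative without passing. The fourth, with mean signals of 28.0 ± 19.8 and 40.2 ± 4.4 (SD, n = 3), lay below the level for testing. Without that filter it gave 0.44 (limma adjusted p = 0.596).

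At 9 of the 15 tested member probe sets the genotypes were fully separated, 7 lower and 2 higher in transgenic muscle, against 31.0% of all tested probe sets (13.2% lower and 17.8% higher). The coefficient of variation within a genotype ranged from 0.46% to 38.9% over the members, with a median of 9.39%.

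Isoform ratios within an array were compared next, since a ratio of signals from the same array depends less on the scaling of that array than a single signal does. The added constant leaves some dependence on it. Only their change between genotypes is read, because levels of different probe sets are not comparable. Each ratio is a difference of log2(signal + 16) between the brightest probe sets. Prkag3 minus Prkag1 was 2.64, 2.08 and 2.44 on the wild-type arrays and -0.83, -1.60 and -1.17 on the transgenic arrays. It was lower on every transgenic array than on any wild-type array, and differed by -3.59. Prkag3 minus Prkag2 was 3.93, 3.34 and 3.23 against 1.25, 1.35 and 0.53, a difference of -2.45.

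Prkag2 minus Prkag1 was -1.28, -1.26 and -0.79 on the wild-type arrays and -2.08, -2.95 and -1.70 on the transgenic arrays, a difference of -1.13 with no overlap. Prkab2 minus Prkab1 was 4.47, 4.17 and 3.92 against 3.17, 3.45 and 3.25, a difference of -0.90 with no overlap. Prkaa2 minus Prkaa1 was 4.72, 4.94 and 4.47 against 4.94, 4.96 and 4.35, overlapped, and differed by 0.04. The first 4 of these 5 ratios each gave an exact two-sided permutation p = 0.1, the smallest that 3 arrays against 3 allow, and 0.125 after Benjamini-Hochberg adjustment. The α ratio gave an exact permutation p = 0.9. With median scaling, chosen for the ratios after seeing the data, the differences in the order given were -3.59, -2.46, -1.12, -0.90 and 0.023.

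**Figure D3:**
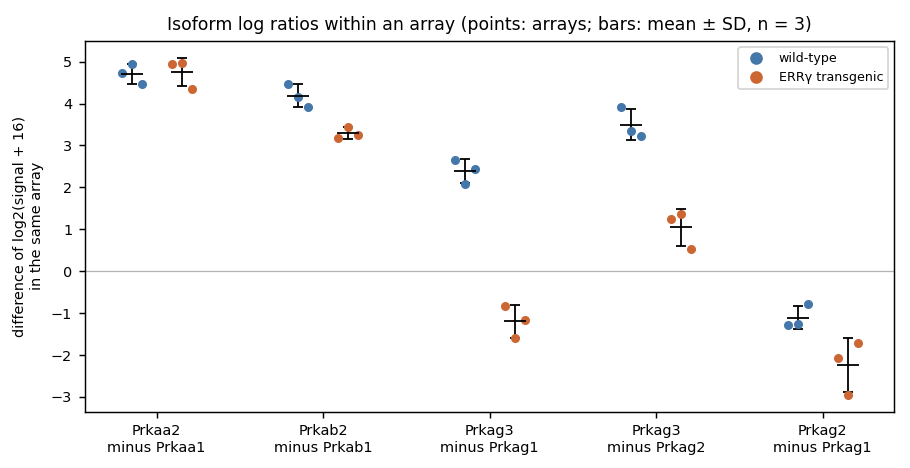
Difference of log2(signal + 16) between isoforms of the same AMPK subunit on the same array, with 1 point per array and mean ± SD (n = 3) for wild-type and ERRγ transgenic muscle. The ratios of γ3 and of β2 to their sister isoforms are lower on all 3 transgenic arrays, and the α2 to α1 ratio overlaps between genotypes.

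Patterns over the 6 arrays were compared with that of Prkag3 by Pearson correlation of log2(signal + 16), for 1 probe set per gene. The most similar were Exoc7 (r = 0.9993), Slc44a2 (0.9991), Slc37a4 (0.9989), Folr2 (0.9984) and Gbp7 (0.9981). The most opposed were Scn4b (r = -0.9985), Magix (-0.9977), Endog (-0.9977), Tmsb4x (-0.9977) and Inpp5k (-0.9975). In all, 330 other genes had r above 0.95. The 6 points form 2 genotype groups and share arrays, so a gene that separates the genotypes evenly has a high r, and no p is given. Exoc7, an exocyst component, fell by 1.85 on the log2 scale, and Slc37a4, the glucose 6-phosphate transporter of the endoplasmic reticulum, fell by 1.60. Scn4b, a sodium channel β subunit, rose by 0.74.

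Genes around the kinase were examined in 4 lists, each gene at its brightest probe set. Among upstream kinases and adaptors, 0 of 7 tested passed as higher, 1 as lower and 6 missed the threshold, where 7.65% of all genes tested passed as higher and 5.75% as lower. The median log2 difference of the list was -0.20, against 0.03 over all genes tested. Cab39, which encodes the MO25 scaffold that stabilises active LKB1, read 1798, 1842 and 1808 on the wild-type arrays and 997.8, 813.2 and 1241 on the transgenic arrays. It fell by 0.85 (SE 0.14, limma adjusted p = 0.00350), and its other probe set also fell, by 0.47 (limma adjusted p = 0.0467). Stk11, which encodes LKB1 itself, gave -0.20 (95% interval -0.51 to 0.11) and Camkk2, a calcium-dependent AMPK kinase, gave 0.00 (95% interval -0.35 to 0.35). Another Camkk2 probe set read 88.9, 90.5 and 78.2 against 50.1, 46.3 and 45.0, without overlap, but its difference of -0.69 did not pass (limma adjusted p = 0.0612). The remaining Camkk2 probe sets overlapped, at -0.17 and -0.25, as did the other one of Stk11, at -0.04. The names Stk11 and Camkk2 were chosen after their values were seen.

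Among phosphatases and inhibitory regulators, 1 of 11 tested passed as higher, 1 as lower and 9 missed the threshold. Over all genes tested, 7.65% passed as higher and 5.75% as lower. The median of the list was -0.03. Wwp1, a ubiquitin ligase, went from 2169 ± 68.9 to 3140 ± 243.6 (SD, n = 3), a log2 difference of 0.53 (SE 0.10, limma adjusted p = 0.00564). A second Wwp1 probe set rose by 0.51 and the remaining one did not pass, at 0.37. Flcn, folliculin, which restrains AMPK-linked signalling with its FNIP partners, read 762.4, 710.4 and 687.2 on the wild-type arrays and 564.5, 438.2 and 444.9 on the transgenic arrays. It fell by 0.57 (SE 0.13, limma adjusted p = 0.0168) and by 0.68 at its other tested probe set. The brightest Flcn probe set carries the suffix of probes that can match other transcripts. At the brightest probe set the fall missed the threshold without wild-type 1 (adjusted p = 0.0788), wild-type 2 (0.0560), transgenic 2 (0.0581) or transgenic 3 (0.0571). Without the intensity trend of the fit, neither Wwp1 (adjusted p = 0.0579) nor Flcn (0.0710) passed.

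Among genes whose proteins AMPK phosphorylates, 4 of 22 tested passed as higher, 1 as lower and 17 missed the threshold. Over all genes tested, 7.65% passed as higher and 5.75% as lower. The median of the list was 0.07. The bifunctional enzymes that set fructose 2,6-bisphosphate, an activator of glycolysis, moved in opposite directions. Pfkfb2 read 154.0, 161.8 and 122.1 on the wild-type arrays and 534.9, 506.3 and 516.1 on the transgenic arrays, a rise of 1.73 (SE 0.14, limma adjusted p = 4.70e-05), and all 4 of its probe sets rose. Pfkfb3 read 2972, 2034 and 1780 against 911.0, 538.8 and 440.4, and fell by 1.85 (SE 0.25, limma adjusted p = 0.00108). In both genes the genotypes did not overlap.

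Tbc1d1, a Rab GTPase-activating protein that holds glucose transporter vesicles back until it is phosphorylated, read 180.8, 195.6 and 155.4 on the wild-type arrays and 313.5, 371.3 and 392.5 on the transgenic arrays. It rose by 0.96 (SE 0.15, limma adjusted p = 0.00211). A second of its 4 tested probe sets also rose, and the others were positive without passing. The transcription factor Foxo3 rose by 0.77 (SE 0.16, limma adjusted p = 0.0103), from 213.8 ± 19.2 to 377.8 ± 69.0 (SD, n = 3), while its other tested probe set did not pass, at 0.33. Its rise missed the threshold when both arrays numbered 3 were left out, a setting chosen after seeing the data (adjusted p = 0.0544). Acacb, chosen after its value was seen, is acetyl-CoA carboxylase 2, which makes the malonyl-CoA that limits fatty acid entry into mitochondria. It rose by 0.60, from 1509 ± 106.4 to 2306 ± 258.5 (SD, n = 3, limma adjusted p = 0.00606).

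Among AMPK-related kinases, the family that LKB1 also activates, 2 of 11 tested passed as higher and 9 missed the threshold. By limma 0 fell after adjustment, where 7.65% of all genes tested passed as higher and 5.75% as lower. At an unadjusted limma p under 0.05 there were 5 genes of 11, where 27.9% of all genes tested had such a p. They were the 2 rises and 3 negative differences (Sik2 -0.65, Sik3 -0.44 and Mark3 -0.36, named after their values were seen). Sik2 read 747.4, 607.8 and 1275 on the wild-type arrays and 475.2, 591.7 and 515.7 on the transgenic arrays. It was highest on wild-type 3 and, among the transgenic arrays, on transgenic 2, as were the summed adipocyte markers. Another probe set of Sik2 and another of Sik3 went the other way without passing, at 0.48 and 0.23. The median of the list was 0.03. Snrk read 802.6, 887.3 and 986.0 on the wild-type arrays and 1200, 1310 and 1284 on the transgenic arrays, a rise of 0.50 (SE 0.11, limma adjusted p = 0.0155), and its other probe set rose by 0.61. The Snrk rise missed the threshold without wild-type 1 (adjusted p = 0.0776), wild-type 2 (0.0574) or transgenic 2 (0.0511), with median scaling (0.110), and without the intensity trend (0.0781). Mark1, a microtubule-regulating kinase, rose by 0.62 (SE 0.18, limma adjusted p = 0.0471) and lost its call without any 1 of the arrays, with adjusted p from 0.0551 to 0.140. Its 2 dimmer tested probe sets rose by 1.27 and 1.31. The brightest Mark1 probe set carries the suffix of probes that can match other transcripts.

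**Figure D4:**
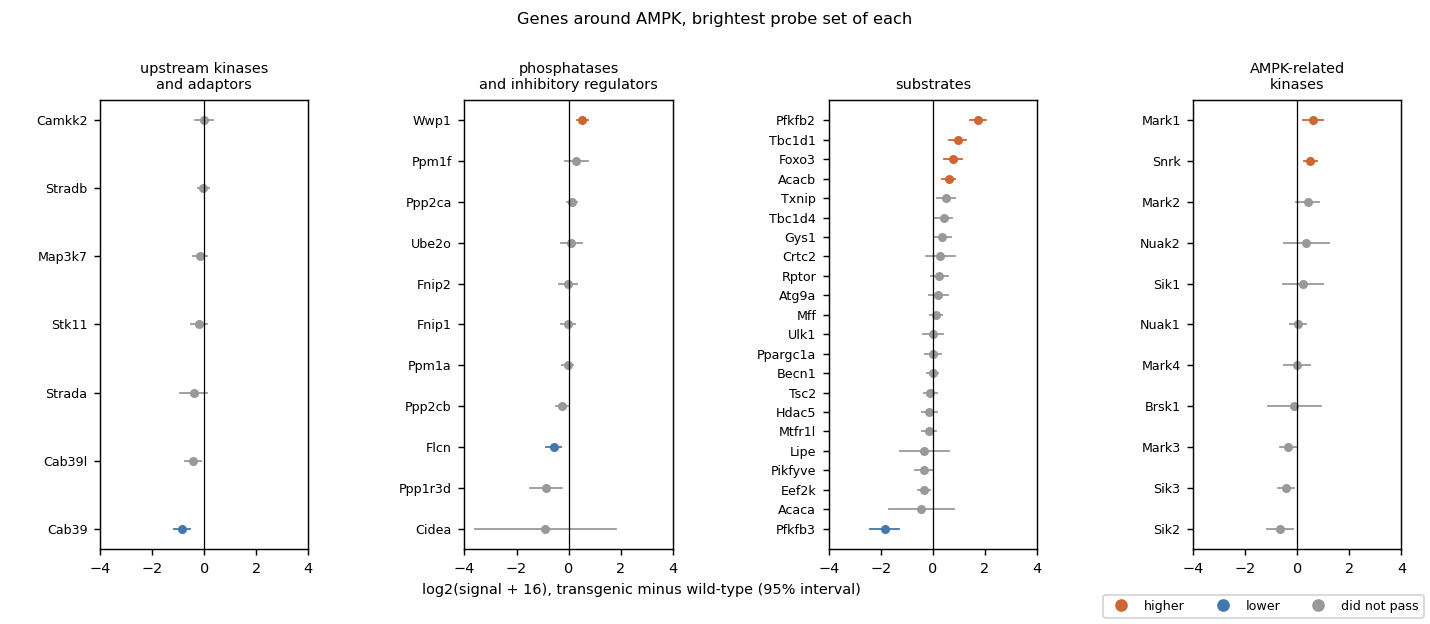
Transgenic minus wild-type difference in log2(signal + 16), with 95% intervals, for the tested genes of 4 lists around AMPK, 1 probe set per gene; orange passed as higher, blue as lower and grey did not pass. Most genes did not pass, Pfkfb2 at 1.73 and Pfkfb3 at -1.85 lie farthest out among those that passed, and Cidea has the widest interval.

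Fibre markers were read beside Prkag3 and Prkab2, where 7.65% of all genes tested passed as higher and 5.75% as lower. Of 8 fast-fibre markers, 1 rose and 0 fell, with summed signals of 138238 to 176288 in wild-type and 154174 to 174726 in transgenic muscle. The rise was that of the myosin Myh1, by 0.67 on the log2 scale (limma adjusted p = 0.00129), while Myh4 gave 0.01. Actn3 was lower without overlap, at -0.22, but did not pass (limma adjusted p = 0.175). The lowest signal among the 8 fast-fibre markers was 11412, and whether signals this bright still follow transcript level was not tested. Of 6 listed skeletal muscle fibre markers, 1 rose and 0 fell. It was myoglobin (Mb), by 1.45 (limma adjusted p = 1.80e-04), while the others lay between 0.04 and 0.23 and did not pass. Of 7 slow-fibre markers, 2 rose and 0 fell, and the median log2 difference of the list was 2.15. Myl2 and Tnnt1 rose, by 3.11 and 2.48. Myh7 and Myl3 were also higher on every transgenic array than on any wild-type array, at 2.82 and 2.15, but did not pass. Tnni1, Tnnc1 and Atp2a2 overlapped between genotypes. The summed signals of the list were 1060 to 1103 in wild-type and 1312, 1836 and 7727 in transgenic 1, 2 and 3. Atp2a2 alone read 775.1 to 798.3 on the wild-type arrays and 689 to 1700.5 on the transgenic arrays. On transgenic 3 Prkag3 read 302.7, between the other transgenic arrays, and without that array its log2 difference was -3.09. How the Prkag3 difference relates to the slow-fibre and fast-fibre markers was not tested.

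Markers of other cell types moved as well, again beside 7.65% of all genes tested passing as higher and 5.75% as lower. Of 6 endothelial markers, 5 rose and 0 fell, with summed signals of 1789 to 1923 in wild-type and 3254 to 3592 in transgenic muscle. Of 5 pericyte and smooth muscle markers, 1 rose, with sums of 7056 to 8460 and 11244 to 12849. The median log2 differences of the endothelial list and of the pericyte and smooth muscle list were 0.76 and 0.36. Of 5 leukocyte markers 1 fell, with sums of 2446 to 2693 and 1681 to 2202.5. No fibroblast marker passed of 5 and no satellite cell marker of 3, but their sums were lower without overlap, at 22535 to 26299 against 20457 to 21640 and at 298.0 to 365.6 against 218.4 to 254.4. The median log2 differences of these 3 lists were -0.30, -0.29 and -0.52. No adipocyte marker passed of 3 tested, and the sums overlapped. The same held for Schwann cell markers, with 2 tested. The sums of 2 erythrocyte markers were higher without overlap, at 45.0 to 72.6 against 93.4 to 122.1. Only 1 of them was tested, and it did not pass. No marker read 0 on any array, but the lowest slow-fibre signal was 4.5 and whether such markers were detected is not known. The part of these cells in the difference of Prkag1, which is not limited to muscle fibres, was not tested. In whole muscle, fewer cells of a type and less RNA per cell cannot be told apart.

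The trimmed mean was the same on all arrays, but the median signal was 52.1 to 56.3 on wild-type and 57.1 to 61.9 on transgenic arrays, higher on every transgenic array. Spearman correlations were 0.935 to 0.955 within and 0.906 to 0.930 between genotypes over the tested probe sets. Of the calls over all probe sets, 55.2% were higher in transgenic muscle with the deposited scaling and 28.9% with median scaling. The 3 arrays per genotype limit the precision.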

How the data were processed

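Quadriceps RNA of 3 wild-type and 3 transgenic mice was labelled as biotinylated cRNA and hybridised to Affymetrix arrays, per the labels' protocols. The authors deposited intensity values made with MAS5, linear in scale, per the submitters' processing notes. No MAS5 version or setting was given. The mean of each array without its highest and lowest 2% of probe sets was 200.0. Detection calls were not used here, so whether a probe set was detected is not known.

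Signals were taken as log2(signal + 16), which understates changes of dim probe sets, with no further normalization. Of 45101 probe sets, 64 are controls and were not used. A probe set was tested when its mean signal exceeded the 40th percentile, 37.8. Genes were named from the platform annotation: 34945 probe sets have 1 symbol, 932 several and 9160 none. The genotype test was that of limma 3.58.1, run in R 4.3.3 (intensity trend, two-sided, Benjamini-Hochberg over all tested probe sets, threshold 0.05). A gene was represented by its brightest single-gene probe set. Isoform ratios were tested by exact permutation over arrays. On simulated data of this comparison, with 27022 probe sets, 63 of 100 simulated 2-fold changes and 99 of 100 simulated 4-fold changes were recovered, with 12 false among 174 calls. Noise was independent and normal, with the spread of each probe set drawn toward the median spread, so outlying arrays were not simulated. The changes were placed only in probe sets with a mean signal above 100, and in fewer of them than passed in the real data. The dimmest tested member probe set averaged 73.7, so these rates do not cover such probe sets.

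The members, the 4 lists (56 genes, 2 of them without a usable probe set) and the rule for named genes were chosen with earlier results of these data known. The named genes are all members, for each list the 4 largest changes among those that passed, Esrrg, and the 5 genes most and least correlated with Prkag3. The alternatives changed the constant, the filter, the scaling between arrays, the eBayes settings, array weights, the block for replicate numbers and the probe set per gene, or left out an array. Plots were drawn with matplotlib 3.10.9.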

Additional observations from a re-analysis of the deposited data

How the results depend on the processing

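Over 24 named probe sets, 407 values under alternatives gave 372 with the same call, 33 that lost it, 2 that gained it and 0 that reversed a call; Prkag3 and all Prkab2 probe sets kept theirs throughout. With median scaling, 977 probe sets were higher and 2399 lower, 0 AMPK subunit probe sets and 0 subunit genes were higher, and the AMPK-related kinases had 0 higher and 3 lower, while 2 upstream genes and 2 substrates were lower. Without the intensity trend, 951 probe sets were higher and 633 lower, with 0 subunit probe sets, 0 subunit genes, 0 phosphatases and regulators and 0 related kinases higher and 0 phosphatases and regulators lower. The related kinases had 1 higher with no filter, quantile normalization, array weights, the replicate block, or both arrays numbered 3 left out (chosen after seeing the data). In that last setting 0 subunit probe sets and 0 subunit genes were higher, 2 related kinases were lower and 0 regulators were lower. With the filter at the 60th percentile, 2 upstream genes, 2 substrates and 1 related kinase were lower. Substrates had 2 lower with robust eBayes, array weights or the mean of a gene's probe sets, and 1 related kinase was lower with array weights. The cause of these moves was not tested.

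With 1 array left out, probe sets higher ranged from 1028 to 1783 and lower from 677 to 1518, subunit probe sets higher from 0 to 1 and subunit genes higher from 0 to 1, related kinases higher from 0 to 1 and lower from 0 to 1, and phosphatases and regulators lower from 0 to 1. The α isoform ratio, which no test called, turned to -0.037 with 64 as the added constant and ranged from -0.080 to 0.24 with 1 array left out. Same-numbered replicates did not deviate together (correlations of -0.08 to 0.07 over 3 pairs, and 1 of 3 wild-type arrays correlated best with its own number). The replicate block gave 2744 calls in place of 3115, with 2 phosphatases and regulators lower. No depth can be given for arrays, and signal over background was not used here.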

Other observations

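Some genes of the lists around AMPK followed 1 wild-type array. Cidea, a lipid droplet protein of adipocytes that also binds the AMPK β subunit, read 95.6, 40.9 and 2561 on the wild-type arrays and 46.8, 537.3 and 56.5 on the transgenic arrays. Acaca, acetyl-CoA carboxylase 1 of fatty acid synthesis, read 355.8, 283.8 and 1691 against 273.6, 742.1 and 319.8. Lipe, hormone-sensitive lipase, read 294.7, 351.0 and 1179 against 339.4, 583.1 and 308.5. Each was highest on wild-type 3 and, among the transgenic arrays, on transgenic 2. The summed signal of the 3 adipocyte markers was also highest there, at 9913 on wild-type 3 against 3620 and 2677 on the other wild-type arrays, and at 4761 on transgenic 2 against 2529 and 1641. These genes were chosen after their values were seen, and none of them passed the genotype test.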
